A study of Mus musculus with 18 samples.

Results

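Described here are 50 genes of ribosome biogenesis and RNA polymerase I, chosen by name as a module. All 50 were found among the 23420 genes in the files, 49 under the same symbol and Nifk under its older symbol Mki67ip, and all 50 passed the filter on low values.

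Cells make ribosomes in the nucleolus, where RNA polymerase I transcribes the ribosomal DNA into a long precursor RNA. Small nucleolar ribonucleoproteins (snoRNPs) modify that precursor, a large set of assembly factors cuts and folds it around ribosomal proteins, and the subunits are then exported to the cytoplasm. Resting B cells are small and make few ribosomes, and they enlarge their nucleoli when they are activated and prepare to divide.

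The 50 genes were read in 18 RNA-seq libraries of splenic B cells of MRL/lpr mice, a lupus-prone strain, aged 5 to 7 weeks, after 4 h of culture. Most groups carried chimeric Toll-like receptors, in which the endosomal nucleic acid sensors TLR7 and TLR9 exchange their cytoplasmic TIR signalling domain.

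In the Tlr7-/- arm, the cells came from female mice. They carried Tlr997, which encodes TLR9 with the TIR domain of TLR7, or Tlr9+/- (Tlr9het below), which encodes normal TLR9 from a single allele. All mice of that arm lacked Tlr7, and the cells were left unstimulated or given the TLR9 agonist CpG (ODN 1826) at 10 µg/ml. In the other arm, the cells came from male Tlr779 mice, which make TLR7 with the TIR domain of TLR9 and lack Tlr9. They were left unstimulated or given the TLR7 agonist CL097 at 5 µg/ml. Each of the 6 groups held 3 libraries, and the treatment text names 3 mice per genotype without saying which library came from which mouse. The sample titles give the control of the Tlr7-/- arm as Tlr9 heterozygous, whereas the treatment text writes Tlr9-/-, and the titles were followed. The chimeric alleles sat at the receptor loci in the germline, so all cells of the mice carried them, and the study took a single Tlr9 allele as control because Tlr997 cells hold less receptor protein than wild-type cells. The Tlr7 wild-type control of the male arm was not analysed here.

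The level of each gene was a log2 CPM, the log2 of its read count scaled to a common library size and normalized by the authors. The read depth is unknown, since the files give no counts. Fold changes are differences of log2 CPM with the moderated standard error (SE) of limma. A gene was called where its Benjamini-Hochberg adjusted p was under 0.05 and its log2 fold change passed 0.5 in either direction. CPM are relative within a library, so a rise in total RNA per cell would not be seen, and in these bulk samples fewer cells of a type and less RNA per cell cannot be told apart.

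The receptor genes were read as a check of the labels. Tlr7 was at 2.68 to 4.28 log2 CPM in the 6 Tlr9het libraries, 4.81 to 5.36 in the 6 Tlr997 libraries and 6.61 to 7.82 in the Tlr779 libraries. Tlr9 was at 6.93 to 8.08 in all 18. It was lower without overlap in Tlr997 than in Tlr9het, at 7.015 to 7.06 against 7.28 to 7.48 unstimulated. With CpG it was at 7.18 to 7.555 in Tlr997 and 7.93 to 8.08 in Tlr9het. The part of this in the genotype differences below was not tested. Reads can remain in a gene with a deletion, and these levels were not separated by exon. By the paper's design, the Tlr9 locus of Tlr997 mice also holds the TIR sequence of Tlr7. The Tlr7 locus of Tlr779 mice likewise holds that of Tlr9. The part of the inserted sequence in these levels was not tested. The B cell marker Ms4a1 was at 9.26 log2 CPM or more in every library of the Tlr7-/- arm. Summed over 8 B cell markers the level was 5994 to 7963 CPM without and 1992 to 3833 CPM with an agonist, and 6, 4 and 5 of the 8 were lower without overlap in Tlr9het, Tlr997 and Tlr779 while 1, 2 and 0 were higher. The summed T cell markers never passed 22.3 CPM, the NK cell markers 8.78 CPM and the neutrophil markers 76.0 CPM. The 6 macrophage and monocyte markers summed to 122.8 to 449 CPM without and 83.1 to 180 CPM with an agonist, and 3, 0 and 1 of them were lower without overlap in the 3 stimulations. The erythroid markers ran from 12.3 to 474 CPM without an order by group, and the 5 plasma cell markers from 1082 to 1652 CPM without and 2111 to 2633 CPM with an agonist. Of these 5, 2, 1 and 1 were higher and 2, 3 and 2 lower without overlap, and Irf4, which other activated B cells express too, carried the rise of the sum. The part of these shifts in the results below was not tested. Libraries of a group correlated at 0.944 to 0.989 over all expressed genes and at 0.983 to 0.999 over the 50 genes, with the lowest values in pairs with unstimulated Tlr997 replicate 3.

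The upstream sequences of 3 genes show what stood before some of these genes. MYC and its partner MAX, known activators of ribosome biogenesis genes, bind the palindromic E-box CACGTG. RefSeq promoter windows, each from 250 bases before to 50 after a gene start in GRCm38.p6, were available for 43 of the 50 genes. The box was found in 8 of these 43 genes, or 18.6% (95% Wilson interval 9.74 to 32.6), against 8.09% of 27025 genes with a window and 12.3% of the 8632 that were tested here. The interval of the module includes the share among the tested genes and lies above that of all genes with a window. The variants CACATG or CATGTG were found in 10 of the 43, or 23.3% (13.2 to 37.7), against 15.9% of all and 10.3% of tested genes. This interval includes the share of all genes and lies above that of the tested genes. In Imp4, Nop2 and Rrn3 the box lay before the start, at -121, at -60, and at -215 and -48. In Ltv1, Utp20, Pes1, Tsr1 and Wdr43 it lay after the start. The 250 bases before these 3 starts are given 5′ to 3′ on the gene strand, with the box in capitals. They lie at chr1:34439579-34439828 (Imp4, plus strand), chr6:125131633-125131882 (Nop2, plus strand) and chr16:13780449-13780698 (Rrn3, plus strand).
Imp4: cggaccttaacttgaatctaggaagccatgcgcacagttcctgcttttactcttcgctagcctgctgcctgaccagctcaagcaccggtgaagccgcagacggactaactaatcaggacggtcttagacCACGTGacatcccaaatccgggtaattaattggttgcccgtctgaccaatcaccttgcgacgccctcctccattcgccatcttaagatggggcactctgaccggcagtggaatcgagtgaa
Nop2: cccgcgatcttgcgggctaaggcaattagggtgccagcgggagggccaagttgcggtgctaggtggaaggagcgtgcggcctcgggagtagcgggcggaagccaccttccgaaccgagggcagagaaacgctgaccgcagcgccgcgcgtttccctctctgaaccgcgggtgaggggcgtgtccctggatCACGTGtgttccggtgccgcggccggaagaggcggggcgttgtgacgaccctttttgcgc
Rrn3: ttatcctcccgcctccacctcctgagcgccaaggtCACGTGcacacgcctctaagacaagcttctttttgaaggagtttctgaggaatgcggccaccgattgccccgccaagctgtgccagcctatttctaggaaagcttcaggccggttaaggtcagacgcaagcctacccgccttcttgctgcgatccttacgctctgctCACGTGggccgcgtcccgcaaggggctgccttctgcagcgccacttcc
A match of these letters is a description of the window and not a binding site. Among the genes that hold the box, the CpG response in Tlr9het ran from 0.64 for Pes1 to 2.03 for Nop2, a range inside that of the module.

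All 3 stimulations raised the module nearly as a whole. With CpG in Tlr9het, 49 of the 50 genes were called higher, against 29.7% of the 11494 genes tested. With CpG in Tlr997, 50 of 50 were called higher, against 29.6%. With CL097 in Tlr779, 49 of 50 were called higher, against 22.7% of 11082 genes. None was called lower in any of the 3, while 28.2%, 26% and 23.6% of all genes tested were. The exceptions were Tcof1 with CpG in Tlr9het and Pes1 with CL097, both higher with a fold change under the threshold. The stimulated libraries lay above the unstimulated ones without overlap for 50 of 50 genes in each comparison, as they did for 41.6%, 37.9% and 32.9% of all genes. In all, 48 of the 50 genes, or 96%, were called higher in all 3, against 19% of the 11012 genes tested in all 3.

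The median log2 fold change over the module was 1.63 with CpG in Tlr9het, 1.55 with CpG in Tlr997 and 1.23 with CL097 in Tlr779, beside 0.04, 0.07 and -0.02 over all genes tested. A log2 fold change over 1 was reached by 47, 45 and 37 genes, where 17.6%, 16.9% and 11.2% of all genes did so. The largest SE of a response was 0.167 in the Tlr7-/- arm and 0.13 in Tlr779, and the largest adjusted p in limma was 2.4e-05, 1.2e-06 and 0.0068.

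**Figure D1:**
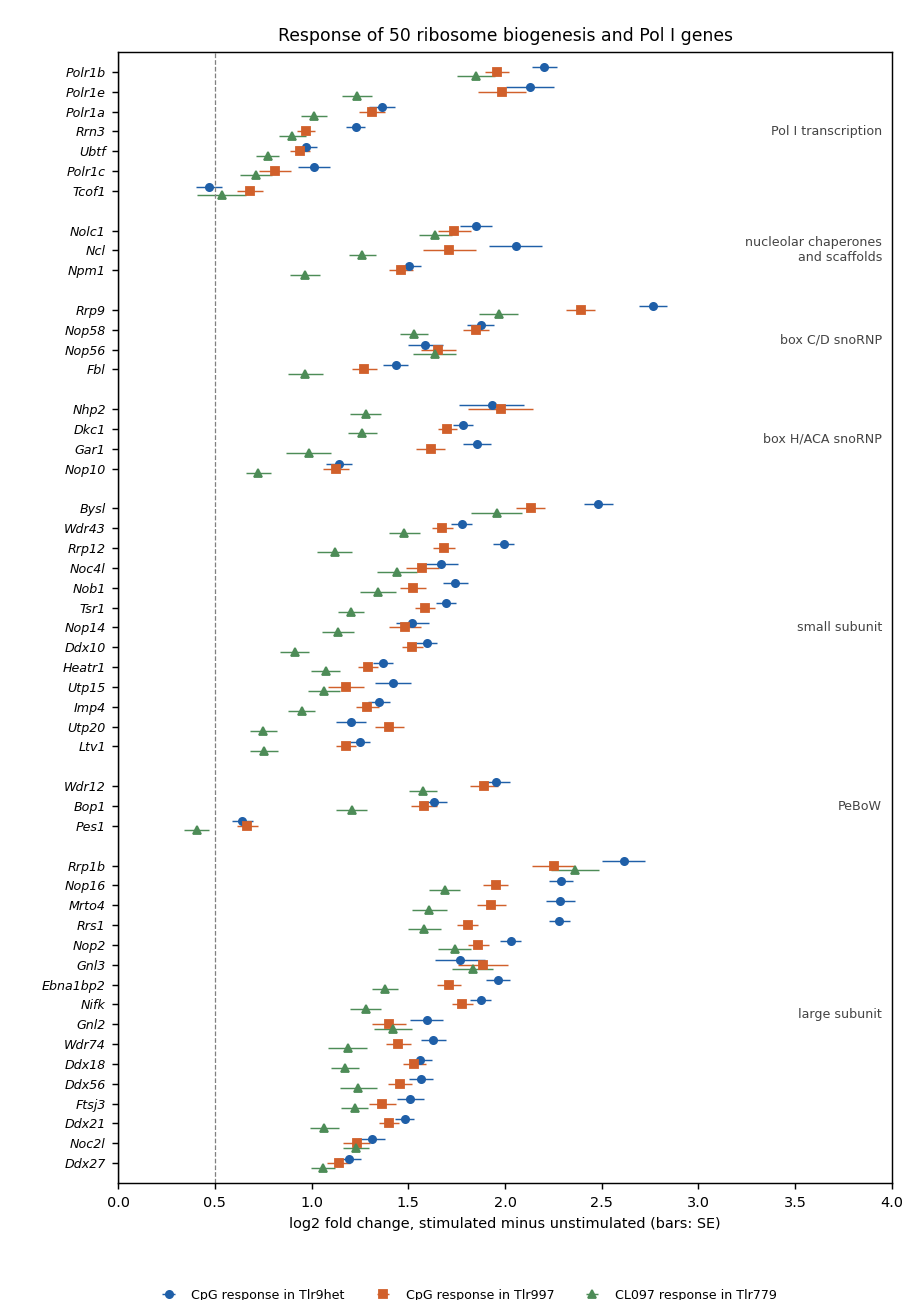
Log2 fold change of each of the 50 genes with stimulation, by role, with the SE from limma. Circles show CpG in Tlr9het, squares CpG in Tlr997 and triangles CL097 in Tlr779; the dashed line marks the call threshold of 0.5, and Tcof1 and Pes1 are the genes beside it.

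Across genes, the CpG response in Tlr9het was the highest of the 3 for 44 genes and that in Tlr997 for 6. The CL097 response in Tlr779 was the lowest for 45. Over all genes tested, too, fewer were called higher with CL097 (22.7%) than with CpG in Tlr9het (29.7%) or Tlr997 (29.6%). The arms differ at once in sex, receptor, knockout background, agonist, dose, cell number and, by the paper, age range. These cannot be told apart, and no test was made between the arms. Within the module, genes with a higher level before stimulation tended to have the smaller response, with r of -0.39, -0.33 and -0.36 over the 50 genes. The start level is part of both measures, so this is given as a description.

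The summed level of the 50 genes was read as their share of all normalized CPM, without a correction for transcript length. In Tlr9het the sum was 9124 to 9618 CPM without and 29379 to 29736 CPM with CpG. Tlr997 libraries were at 8764 to 9646 CPM without and 24950 to 28765 CPM with CpG. In Tlr779 it went from 8340 to 8900 CPM to 18731 to 20104 CPM with CL097. Thus the module rose from under 0.973% of all CPM in every unstimulated library to 1.87 to 2.98% in the stimulated ones. The ratios of the group means were 3.18, 2.88 and 2.26. Ncl had the largest share of the summed CPM, which is not per length, and without it the ratios were 2.91, 2.76 and 2.22.

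**Figure D2:**
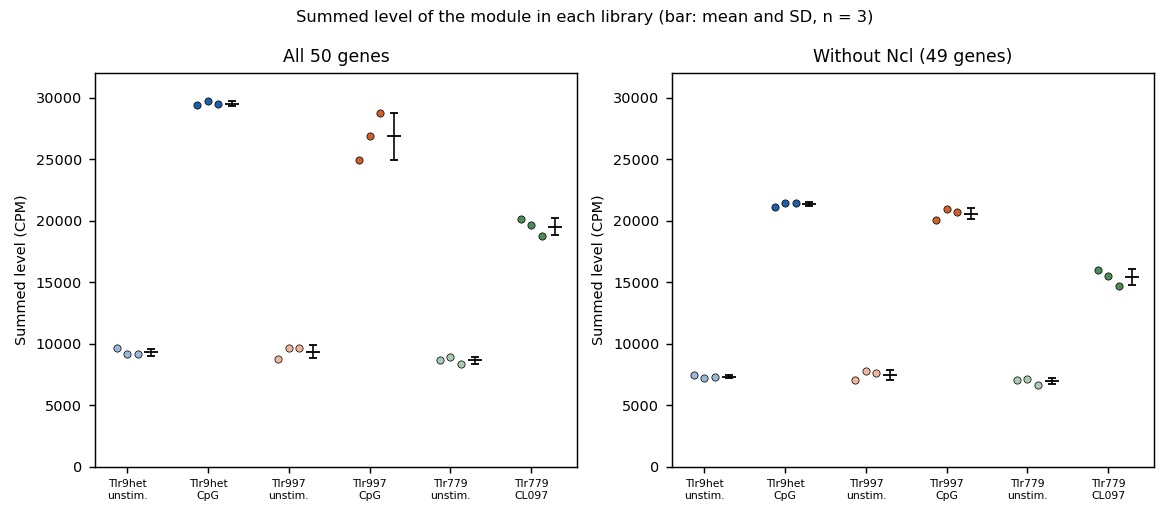
Summed CPM of the 50 genes in each of the 18 libraries (left) and of the same genes without Ncl (right); points are libraries and bars the mean and SD of 3. The 3 Tlr997 libraries with CpG, at 24950 to 28765, lie below the 3 Tlr9het libraries with CpG, at 29379 to 29736.

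Per kilobase of the longest annotated principal transcript, Npm1 had the highest level of the module. It was at 885 ± 48.1 CPM per kb without and 2505 ± 60.0 with CpG in Tlr9het (SD, n = 3). Ncl followed at 241 ± 21.3 and 998 ± 16.7, then Nop58 at 126 ± 4.4 and 460.1 ± 11.2. The lowest with CpG was Wdr12, at 4.5 ± 0.3 CPM per kb without and 17.3 ± 1.1 with CpG. These levels used 1 annotated transcript length per gene, namely 1633 bases for Npm1, 8202 for Ncl and 10012 for Wdr12. A shorter transcript would give a higher level per kb. The order of these genes, including which was highest and lowest, therefore depends on the transcript chosen.

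RNA polymerase I and its factors had the lowest medians of the 7 roles. Their 7 genes had median log2 fold changes of 1.23, 0.97 and 0.90 in Tlr9het, Tlr997 and Tlr779, and 6, 7 and 7 of them were called higher. The second largest subunit of the polymerase, Polr1b, had the highest mean of the 3 responses, although Polr1e was above it in Tlr997. Its Tlr9het libraries were at 6.11, 6.21 and 6.25 log2 CPM without and 8.43, 8.39 and 8.35 with CpG. In Tlr997 the libraries were at 6.09, 6.28 and 6.31 without and 8.14, 8.18 and 8.23 with CpG. With CL097, Tlr779 libraries went from 6.04, 6.05 and 5.87 to 7.98, 7.88 and 7.64. Each stimulated library was above every unstimulated one, and the log2 fold changes were 2.20, 1.96 and 1.85.

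Polr1e, a polymerase-associated subunit, rose by 2.13, 1.98 and 1.23, and Polr1a, the catalytic subunit, by 1.36, 1.31 and 1.01. Rrn3, the initiation factor that links the polymerase to its promoter, rose by 1.23, 0.97 and 0.90. Ubtf, the upstream binding factor of ribosomal DNA, rose by 0.97, 0.94 and 0.77, and Polr1c, a subunit shared with RNA polymerase III, by 1.01, 0.81 and 0.71. Tcof1 encodes treacle, a nucleolar protein that works with the polymerase, and its change was the smallest. It was at 8.37, 8.24 and 8.31 log2 CPM without and 8.81, 8.69 and 8.83 with CpG in Tlr9het. In Tlr997 it was at 8.09, 8.27 and 8.17 without and 8.91, 8.91 and 8.75 with CpG. In Tlr779 it was at 8.34, 7.95 and 8.18 without and 8.84, 8.46 and 8.77 with CL097. The groups did not overlap, and the changes were close to the threshold, at 0.47 ± 0.066, 0.68 ± 0.066 and 0.54 ± 0.13 (SE). Their limma adjusted p were 2.4e-05, 6.7e-07 and 0.0068. The CL097 call of Tcof1 was lost without CL097 replicate 1 (0.46) or 3 (0.50) and without unstimulated replicate 2 (0.43), and with CpG in Tlr9het it was gained without unstimulated replicate 1 (0.50) or CpG replicate 2 (0.51).

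The nucleolar chaperones and scaffolds rose strongly, with medians of 1.85, 1.71 and 1.26 over 3 genes, all called higher in all 3 stimulations. Nolc1, a scaffold of snoRNPs, was at 7.72, 7.49 and 7.63 log2 CPM without and 9.47, 9.41 and 9.51 with CpG in Tlr9het. In Tlr997 it went from 7.495, 7.70 and 7.88 to 9.46, 9.45 and 9.38. Tlr779 libraries went from 7.501, 7.63 and 7.42 to 9.28, 9.17 and 9.03 with CL097. These are rises of 1.85, 1.74 and 1.64 without overlap. Npm1, the histone and ribosomal protein chaperone nucleophosmin, was at 10.54, 10.54 and 10.40 without and 11.96, 12.03 and 11.996 with CpG in Tlr9het. Tlr997 gave 10.43, 10.56 and 10.62 without and the same 11.96, 12.03 and 11.996 with CpG. With CL097, Tlr779 libraries went from 10.49, 10.48 and 10.40 to 11.44, 11.51 and 11.32. The values with CpG were identical between the genotypes to 3 decimals within each replicate number, and Npm1 held rank 5 in all 6 libraries. Quantile normalization sets values by rank, and a further shift per replicate number is left in the files, so the values of the few most abundant genes move in steps of rank.

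Ncl, the rRNA-binding protein nucleolin, was read with that limit. It was chosen after its values had been seen. Tlr9het libraries were at 11.09, 10.90 and 10.85 log2 CPM without and 13.01, 13.02 and 12.97 with CpG. Tlr997 libraries were at 10.77, 10.90 and 10.96 without and 12.25, 12.54 and 12.97 with CpG, and Tlr779 libraries at 10.72, 10.77 and 10.72 without and 12.01, 12.02 and 11.97 with CL097. Ncl rose by 2.06, 1.71 and 1.26, and with CpG it held rank 2 in each Tlr9het library and ranks 4, 3 and 2 in Tlr997 replicates 1, 2 and 3.

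The box C/D snoRNPs guide 2′-O-methylation and the first cuts of the precursor, and their 4 genes had medians of 1.73, 1.75 and 1.58. Rrp9, a protein of the U3 snoRNP, had the largest CpG response of the module in both genotypes. Its Tlr9het libraries were at 5.25, 5.14 and 5.35 log2 CPM without and 8.04, 7.99 and 8.01 with CpG. In Tlr997 they were at 5.33, 5.42 and 5.16 without and 7.66, 7.65 and 7.77 with CpG. Tlr779 libraries were at 5.19, 5.42 and 5.12 without and 7.34, 7.17 and 7.11 with CL097. The groups were far apart, with log2 fold changes of 2.76 ± 0.073, 2.39 ± 0.073 and 1.97 ± 0.10 (SE), or 6.80-fold, 5.24-fold and 3.91-fold. The scaffold proteins Nop58 (1.87, 1.85 and 1.53) and Nop56 (1.59, 1.66 and 1.64) lay between Rrp9 and Fbl with CpG. Fbl, the methyltransferase fibrillarin, had the smallest response of the group. It was at 6.90, 6.82 and 6.86 without and 8.28, 8.33 and 8.28 with CpG in Tlr9het, and at 7.04, 7.16 and 6.87 without and 8.28, 8.31 and 8.29 with CpG in Tlr997. In Tlr779 it went from 6.76, 7.04 and 6.76 to 7.80, 7.77 and 7.90. Its rises of 1.44, 1.27 and 0.97 were again without overlap.

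The box H/ACA snoRNPs guide pseudouridylation, and their 4 genes had medians of 1.82, 1.66 and 1.12. Dkc1, the pseudouridine synthase dyskerin, rose by 1.78, 1.70 and 1.26, and Gar1 by 1.85, 1.61 and 0.98. Nhp2, a core protein, led the group with 1.93, 1.98 and 1.28. It was at 6.01, 5.93 and 6.07 log2 CPM without and 7.87, 7.95 and 7.99 with CpG in Tlr9het. In Tlr997 it was at 6.22, 6.27 and 5.40 without and 7.94, 7.88 and 7.99 with CpG, and in Tlr779 at 5.99, 6.23 and 6.09 without and 7.34, 7.37 and 7.44 with CL097. Unstimulated Tlr997 replicate 3 stood below the rest, and the SE of Nhp2, 0.167, was the largest of the module. Nop10, the smallest core protein, had the least response. It was at 5.77, 5.72 and 5.74 without and 6.77, 6.97 and 6.92 with CpG in Tlr9het. In Tlr997 it was at 5.85, 5.97 and 6.05 without and 7.13, 7.08 and 7.04 with CpG, and in Tlr779 at 5.997, 6.002 and 5.92 without and 6.71, 6.70 and 6.68 with CL097. It rose by 1.14, 1.13 and 0.72 and was the only gene of the module that lay above Tlr9het without overlap in Tlr997 with CpG. It did so unstimulated as well.

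Factors of the small subunit formed a group of 13, all called higher in all 3 stimulations, with medians of 1.59, 1.52 and 1.12. Bysl, which acts late in small subunit maturation, led it. It was at 5.11, 5.09 and 5.08 log2 CPM without and 7.62, 7.57 and 7.54 with CpG in Tlr9het. In Tlr997 it was at 5.09, 5.37 and 5.30 without and 7.47, 7.40 and 7.27 with CpG, and in Tlr779 at 4.90, 5.41 and 5.03 without and 7.16, 7.00 and 7.05 with CL097. Its rises were 2.48, 2.13 and 1.96. Of the exon bases of Bysl, 9.37% also lie in Ccnd3 on the other strand, and the strand setting of the read counting is not given in the sources used here. The same holds for 32.3% of Tsr1 (shared with Srr) and 20.9% of Noc2l (shared with Samd11), and 18 of the 50 genes share some exon bases in this way, so their values are less certain.

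Ltv1, which is needed for export of the small subunit, had the smallest mean response of this group. It was at 6.62, 6.50 and 6.56 without and 7.80, 7.83 and 7.80 with CpG in Tlr9het, and at 6.53, 6.63 and 6.63 without and 7.74, 7.81 and 7.77 with CpG in Tlr997. In Tlr779 it was at 6.33, 6.44 and 6.36 without and 7.08, 7.09 and 7.24 with CL097. Its rises of 1.25, 1.18 and 0.76 still exceeded the spread of the libraries. Rrp12, an export factor of pre-ribosomes, was at 6.23, 6.19 and 6.29 without and 8.25, 8.23 and 8.21 with CpG in Tlr9het. In Tlr997 it was at 6.23, 6.42 and 6.36 without and 8.05, 8.02 and 7.99 with CpG, and in Tlr779 at 6.31, 6.34 and 6.18 without and 7.55, 7.26 and 7.38 with CL097. The rises were 1.99, 1.68 and 1.12. Among the components of the small subunit processome, Wdr43, Noc4l, Nop14, Heatr1, Utp15, Imp4 and Utp20 rose by 1.20 to 1.78 with CpG in Tlr9het, 1.18 to 1.68 in Tlr997 and 0.75 to 1.48 with CL097. Utp20 was an exception in order, since its response in Tlr997 (1.40) was above that in Tlr9het (1.20). Nob1, the endonuclease that trims 18S rRNA, rose by 1.74, 1.52 and 1.34, Tsr1 by 1.69, 1.58 and 1.20, and the helicase Ddx10 by 1.59, 1.52 and 0.91.

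The PeBoW complex, which is made of Pes1, Bop1 and Wdr12 and matures the large subunit, was uneven. Wdr12 was at 5.53, 5.53 and 5.38 log2 CPM without and 7.32, 7.49 and 7.49 with CpG in Tlr9het. Its Tlr997 libraries were at 5.50, 5.68 and 5.48 without and 7.39, 7.47 and 7.47 with CpG, and its Tlr779 libraries at 5.32, 5.46 and 5.32 without and 6.99, 6.94 and 6.91 with CL097. It rose by 1.96, 1.89 and 1.58 and Bop1 by 1.63, 1.58 and 1.21. Pes1 had the smallest fold changes of the complex. It was at 8.08, 8.16 and 8.18 without and 8.73, 8.81 and 8.80 with CpG in Tlr9het, and at 8.13, 8.27 and 8.11 without and 8.87, 8.85 and 8.78 with CpG in Tlr997. In Tlr779 it was at 8.16, 8.13 and 8.17 without and 8.63, 8.45 and 8.59 with CL097. The groups did not overlap, and the log2 fold changes were 0.64 ± 0.054, 0.67 ± 0.054 and 0.41 ± 0.066 (SE), the last with a limma adjusted p of 0.0010 and a fold change under the threshold.

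**Figure D3:**
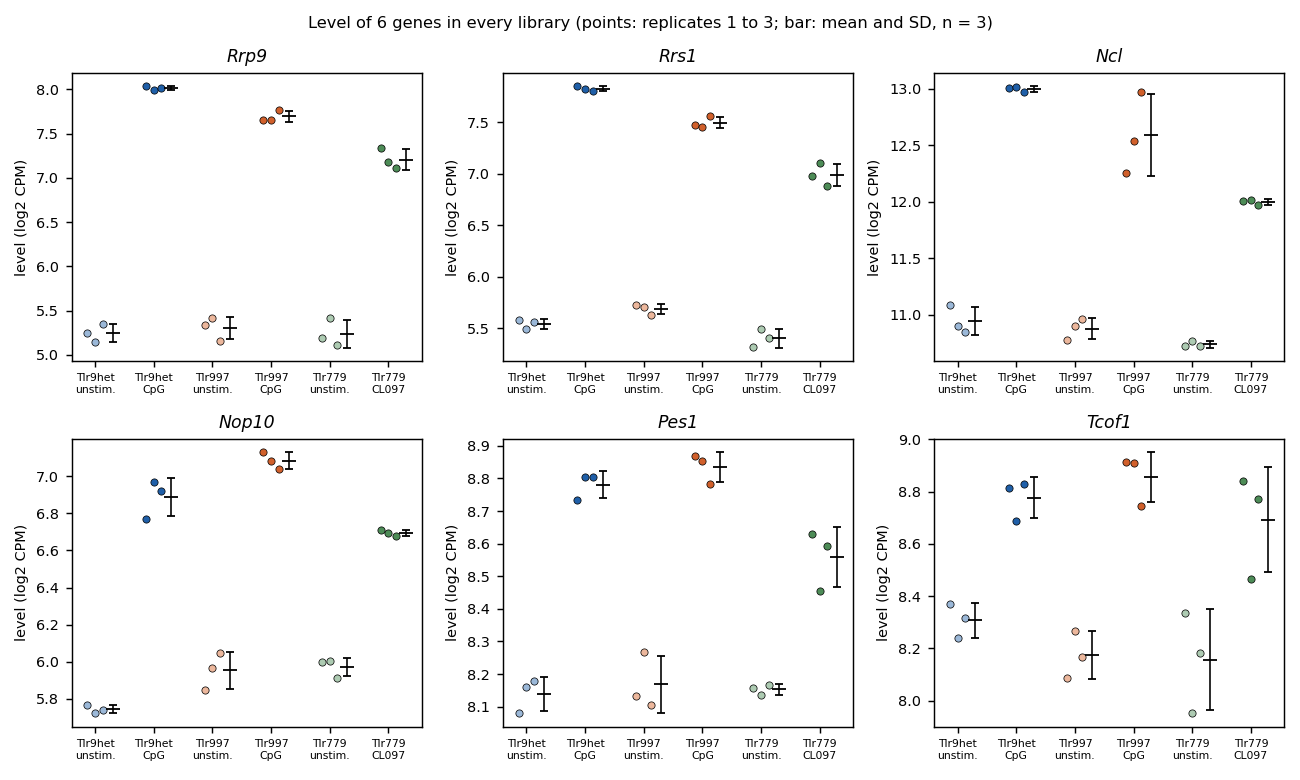
Level (log2 CPM) of Rrp9, Rrs1, Ncl, Nop10, Pes1 and Tcof1 in every library, with the mean and SD of the 3 libraries of each group; axes differ between genes and do not start at 0. Rrp9 and Rrs1 with CpG are lower in all 3 Tlr997 than in all 3 Tlr9het libraries, and Ncl in Tlr997 with CpG is spread from 12.25 to 12.97.

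The large subunit factors were the largest group, with 16 genes, all called higher in all 3, and medians of 1.70, 1.62 and 1.33. Rrp1b, a nucleolar protein of the Rrp1 family, had the highest mean response. It was at 6.06, 5.84 and 5.95 log2 CPM without and 8.54, 8.57 and 8.58 with CpG in Tlr9het, and at 5.80, 6.15 and 6.38 without and 8.29, 8.42 and 8.38 with CpG in Tlr997. In Tlr779 it was at 5.83, 5.63 and 5.43 without and 8.16, 8.01 and 7.81 with CL097. Its rises of 2.61, 2.25 and 2.36 included the largest CL097 response of the module. Nop16 was at 5.74, 5.70 and 5.64 without and 7.998, 8.01 and 7.94 with CpG in Tlr9het. In Tlr997 it was at 5.74, 5.87 and 5.98 without and 7.84, 7.83 and 7.77 with CpG, and in Tlr779 at 5.48, 5.65 and 5.40 without and 7.22, 7.18 and 7.19 with CL097. It rose by 2.29, 1.95 and 1.69.

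Rrs1, which helps to place the 5S ribonucleoprotein in the large subunit, had the lowest adjusted p between the genotypes, as given below. Its Tlr9het libraries were at 5.58, 5.49 and 5.56 without and 7.85, 7.83 and 7.80 with CpG. In Tlr997 they were at 5.72, 5.71 and 5.63 without and 7.48, 7.45 and 7.56 with CpG. Tlr779 libraries were at 5.32, 5.50 and 5.40 without and 6.98, 7.103 and 6.88 with CL097. The rises were 2.28, 1.81 and 1.58. Mrto4, a factor of ribosomal stalk assembly with 2 named pseudogenes that could share its reads, rose by 2.29, 1.93 and 1.61. Nop2, an rRNA methyltransferase, rose by 2.03, 1.86 and 1.74, and Gnl3, the GTPase nucleostemin, by 1.77, 1.89 and 1.83. Ebna1bp2, Nifk, Gnl2, Wdr74, Ddx18, Ddx56, Ftsj3, Ddx21 and Noc2l rose by 1.31 to 1.96 with CpG in Tlr9het, 1.23 to 1.78 in Tlr997 and 1.06 to 1.42 with CL097. Ddx27, an RNA helicase, had the least response. It was at 6.69, 6.67 and 6.64 without and 7.83, 7.87 and 7.89 with CpG in Tlr9het, and at 6.58, 6.68 and 6.83 without and 7.78, 7.85 and 7.87 with CpG in Tlr997. In Tlr779 it was at 6.62, 6.67 and 6.59 without and 7.74, 7.69 and 7.62 with CL097. Its rises of 1.19, 1.14 and 1.06 were nearly equal.

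The genotypes were then compared with CpG to ask whether the TIR domain of TLR7 on TLR9 changed the module. None of the 50 genes was called by limma in either direction, where 1.25% of the 11494 genes tested were called higher and 1.47% lower in Tlr997. At an unadjusted p under 0.05 there were 16 of 50 genes, or 32%, against 19% of all genes. The fitted differences leaned to one side, with 42 of 50 genes below 0, or 84%, against 49.8% of all genes. Of the 2510 genes tested that were called higher with CL097 in Tlr779, 65.5% were below 0, with a median of -0.06. The median over the module was small, at -0.07. In 20 of 50 genes the Tlr997 libraries all lay below the Tlr9het libraries, and in 1 gene all lay above, where 15.4% and 14.6% of all genes did so. Of the 8 B cell markers, 6 lay above Tlr9het without overlap in Tlr997 with CpG and none below, while 2 of 5 plasma cell markers (Irf4 and Prdm1) and 1 of 7 T cell markers (Cd8a) lay below it. The part of these in the difference was not tested. The 95% interval lay within 0.5 on either side of 0 for 49 of the 50 genes, the exception being Ncl. It did so for 6698 of the 11494 genes tested.

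**Figure D4:**
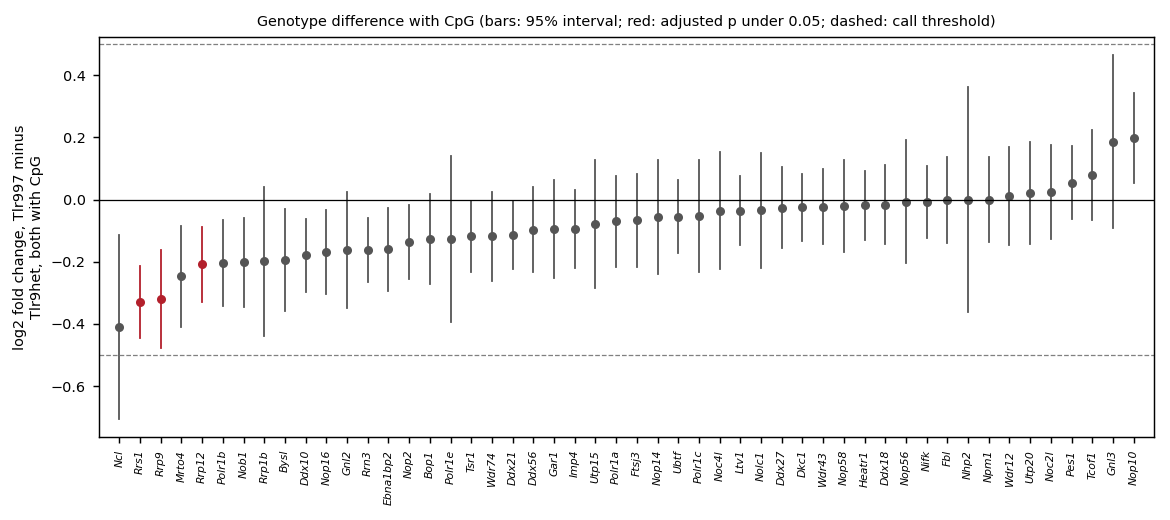
Log2 fold change of each gene in Tlr997 over Tlr9het, both with CpG, in order of size, with the 95% interval from limma. Rrs1, Rrp9 and Rrp12 (red) have an adjusted p under 0.05, which Rrp9 and Rrp12 lose under some alternatives, and no gene passes the threshold of 0.5 marked by the dashed lines with an adjusted p under 0.05.

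An adjusted p under 0.05 in limma at any fold change was found for 3 genes, all lower in Tlr997, as it was for 3.01% of all genes in that direction. Over 21 alternatives the adjusted p of Rrs1 stayed under 0.05 in all 21 (highest 0.021, limma), that of Rrp9 in 14 (highest 0.088) and that of Rrp12 in 9 (highest 0.16), with 0.064 for Rrp12 under the replicate block. With CpG, Rrs1 was at 7.45 to 7.56 log2 CPM in Tlr997 and 7.80 to 7.85 in Tlr9het, a difference of -0.33 (95% interval -0.45 to -0.21) with a limma adjusted p of 0.0030. For Rrp9 the libraries were at 7.65 to 7.77 and 7.99 to 8.04, a difference of -0.32 (-0.48 to -0.16) with a limma adjusted p of 0.022. Rrp12 was at 7.99 to 8.05 and 8.21 to 8.25, a difference of -0.21 (-0.33 to -0.09) with a limma adjusted p of 0.045. These are 0.80-fold, 0.80-fold and 0.87-fold levels, in genes that each rose at least 3.21-fold with CpG. Ncl had the largest difference, -0.41 (-0.71 to -0.12), with overlapping groups and a limma adjusted p of 0.11. Without Tlr997 CpG replicate 3 it was -0.60 with a limma adjusted p of 0.0061 and was called. Nop10 had the largest difference upward, 0.20 (0.05 to 0.34), with a limma adjusted p of 0.12.

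The genotypes were also compared unstimulated. None of the 50 genes was called in limma, beside 0.0174% of all genes higher and 0% lower, and 5, or 10%, had an unadjusted p under 0.05, against 10.8% of all genes. The median difference was 0.05, with 13 of 50 genes below 0, against 52.4% of all genes. In 7 genes, Nop16, Rrn3, Dkc1, Nop10, Mrto4, Rrs1 and Nifk, the Tlr997 libraries all lay above those of Tlr9het, and in Ddx10 they all lay below, where 6.59% and 6.99% of all genes did so.

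The difference of the CpG responses, that in Tlr997 minus that in Tlr9het, combines both comparisons and shares all their libraries. None of the 50 genes was called, where 0.687% of all genes were called with a higher and 0.853% with a lower response in Tlr997, and 13 of 50, or 26%, had an unadjusted p under 0.05, against 16% of all genes. The estimate was below 0 for 44 of 50 genes, or 88%, against 48.3% of all genes, with a median of -0.10. Among the 2510 genes called higher with CL097, 66.4% were below 0, and their median was also -0.10. Rrs1 had an adjusted p under 0.05 in limma (0.0067), as did 1.14% of all genes with a smaller response in Tlr997. It had a difference of -0.47 (95% interval -0.64 to -0.31), just short of the fold threshold. It rose 4.86-fold in Tlr9het and 3.50-fold in Tlr997. Next were Rrp12 with -0.31 (-0.48 to -0.14, limma adjusted p 0.065) and Nop16 with -0.34 (-0.53 to -0.15, limma adjusted p 0.069). The interval of the difference lay within 0.5 on either side of 0 for 39 genes of the module and for 4648 of the 11494 genes tested. Tcof1 and Utp20 had the largest differences upward, 0.21 (0.01 to 0.42) and 0.20 (-0.03 to 0.43), with limma adjusted p of 0.28 and 0.39.

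**Figure D5:**
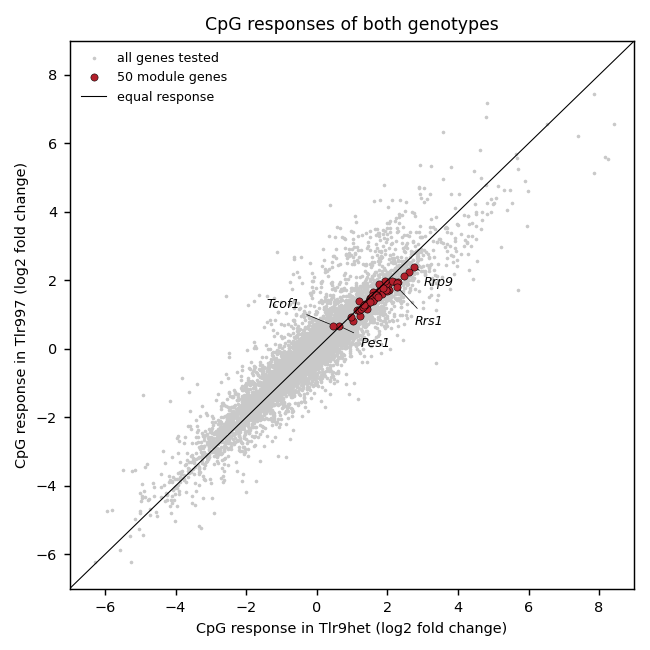
CpG response in Tlr997 against that in Tlr9het for all 11494 genes tested (grey) and the 50 genes of the module (red), as log2 fold changes; the line marks equal responses. The module lies in the upper right, from 0.47 (Tcof1) to 2.76 (Rrp9) in Tlr9het, with 44 of 50 genes below the line.

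Most other genes of the pathway were called higher as well. Of 131 further ribosome biogenesis genes, 128 were in the files and tested. With CpG in Tlr9het, CpG in Tlr997 and CL097 in Tlr779, 116, 115 and 104 were called higher and 1 was called lower in each, with medians of 1.39, 1.28 and 1.00. Of all genes tested, 29.7%, 29.6% and 22.7% were called higher and 28.2%, 26% and 23.6% lower. The largest rises were those of Rpp40, a subunit of RNase P and MRP (2.61 with CpG in Tlr9het), Shq1, an H/ACA assembly factor (2.24 in Tlr997), and Naf1, another one (1.99 with CL097). The gene called lower was Nol7 with CpG in Tlr9het (-0.53) and with CL097 (-0.67), and Nop53, a nucleolar regulator of p53, with CpG in Tlr997 (-0.64). With CpG, no gene of this list was called between the genotypes, where 1.25% of all genes were called higher and 1.47% lower. In Tlr997, 101 of 128, or 78.9%, were below 0, against 49.8% of all genes and 65.5% of those called higher with CL097.

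The genes of the ribosomal proteins themselves were read beside the factors that build ribosomes. Of 76 tested genes of cytosolic ribosomal proteins, 4, 4 and 3 were called higher and 5, 6 and 0 lower, with medians of -0.23, -0.24 and -0.09. At any fold change, 47, 49 and 6 of them were lower and 9, 6 and 5 higher with a limma adjusted p under 0.05. Of all genes tested (11494, 11494 and 11082), 4063, 3806 and 3479 were lower and 4290, 4364 and 3343 higher by that rule. Below 0 were 76.3%, 82.9% and 72.4% of these genes, against 48.6%, 47% and 50.9% of all genes tested. Genes of mitochondrial ribosomal proteins, 76 tested, were called higher in 64, 62 and 42 cases and lower in 0, 0 and 2, with medians of 1.01, 0.91 and 0.55. Among all genes tested, the shares called higher were 29.7%, 29.6% and 22.7%, and those called lower 28.2%, 26% and 23.6%. No test was made between the lists.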

How the data were processed

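The 50 genes and the lists beside them were chosen with earlier results of these data known, so no count over them is independent evidence. The authors prepared stranded mRNA libraries (TruSeq), aligned reads with STAR 2.6.1a to mm10, counted them with featureCounts (Subread 2.0.1), and applied quantile normalization and voom. The deposited values are log2 CPM, 1 file per library, and hold voom's offset, so no pseudocount was added. Values of undetected genes in the Tlr7-/- arm carry a trace of an offset removed per replicate number (822 of 6306 such genes differ between numbers). The residual spread may therefore be too small. Tlr779 libraries were left out of that count. Undetected Hbb-b1 ran from -5.457 to -4.758 log2 CPM in unstimulated Tlr779 as in unstimulated Tlr997, so the same limit may hold for the CL097 response.

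Genes with at least 3 fitted libraries over 0 log2 CPM were tested with limma 3.58.1 in R 4.3.3, with a variance trend, in 1 model of 12 libraries (Tlr7-/- arm) or of 6 libraries (Tlr779). P-values weigh a difference of group means against the moderated spread between these samples, and the main fit had no replicate block. The step was tested on simulated data. Values per library were printed for the highest and lowest mean response of each role, for genes not called in all 3 stimulations, and for the 3 lowest adjusted p with CpG between genotypes and in the difference. Gene lengths and overlaps came from GENCODE M21, promoters from RefSeq GRCm38.p6. The numbers pair the samples in Tlr9het (r of the deviations 0.287 to 0.513) and Tlr779 (0.205 to 0.421), not in Tlr997 (0.025 to 0.373). Alternatives were other filters, a pseudocount, centring, models, weights, a replicate block and leaving out each library.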

Additional observations from a re-analysis of the deposited data

Results flagged for a closer look

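The CpG response of Rrs1 differed between the genotypes in a test of the difference itself. It was -0.47 on the log2 scale in Tlr997 relative to Tlr9het, with an adjusted p of 0.0067 in limma over all genes tested. Its rise was smaller in Tlr997 by both its lower level with CpG (-0.33) and its higher level unstimulated (0.14, limma adjusted p 0.38). With an adjusted p under 0.05 but a fold change under 0.5, it was not called. It was the only one of the 50 genes past the adjusted p in this comparison. Of all genes tested, 1.14% passed it with a smaller response in Tlr997. The 3 Tlr997 libraries of Rrs1 lay above those of Tlr9het without and below them with CpG.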

How the results depend on the processing

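Of the alternative values of the counts of called genes, the medians, the summed CPM and the promoter share, 370 stayed close to the reported values and 9 did not. Direction was not part of this label, and a stricter fold threshold among the alternatives could not raise a count of 0. The sign was checked for the responses of single genes to stimulation, and none was reversed. With library weights 1 gene, Rrs1, was called in the difference of CpG responses (-0.51, limma adjusted p 0.0010). The summed ratio in Tlr9het was 2.91 without Ncl, and the promoter share in the background was 12.3% among tested genes. Leaving out 1 library at a time, the genes called higher numbered 49 to 50, 50 to 50 and 48 to 49, and the medians ran from 1.60 to 1.68, 1.52 to 1.59 and 1.17 to 1.25, in the order Tlr9het, Tlr997 and Tlr779. Between the genotypes with CpG, 0 to 1 genes were called lower (Ncl, without Tlr997 CpG replicate 3) and the median ran from -0.084 to -0.062. For the difference of responses, 0 to 1 genes were called lower, namely Rrs1 without unstimulated Tlr997 replicate 3 (-0.50) or Tlr997 CpG replicate 3 (-0.50) and Rrp1b without unstimulated Tlr997 replicate 1 (-0.52), and the median ran from -0.14 to -0.066. Unstimulated, the median ran from 0.018 to 0.083.

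The fit with a replicate block left 49, 50 and 49 genes called higher and 0 called between the genotypes or in the difference. The block was the number within a genotype for the responses and their difference, and the number across genotypes between the genotypes. For the CpG responses and their difference, a block across the arm was added after seeing the data, with the same counts. With the block across genotypes, the limma adjusted p of Rrp12 with CpG was 0.064, and that of Rrs1 0.00499. For Rrp9 it was highest, 0.088, without Tlr9het CpG replicate 1. Without the filter the CL097 response of Tcof1 had a limma adjusted p of 0.071, and with library weights it was 0.47. Causes of these changes were not tested.

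The depth is unknown, and quantile normalization sets the values of the most abundant genes by rank, which limits Ncl and Npm1. The arms cannot be compared, and with 3 libraries per group small genotype differences stay within the intervals given.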
